A study of Mus musculus with 6 samples.

Results

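The complement system was described in liver RNA through 34 genes that encode its components, regulators and receptors, chosen by gene symbol from the 29734 genes of the deposited expression table. All 34 symbols had 1 row each, and all 34 passed the filter on low counts. The 6 libraries came from liver of male mice that received a diet labelled WD, which in studies of fatty liver stands for the fat- and sugar-rich Western diet, starting at 8 weeks of age and lasting 20 weeks. The Prdx1C52S group (libraries 1, 2 and 4) carried a Prdx1 allele in which serine takes the place of cysteine 52, and the WT group (libraries 6, 8 and 9) the wild-type gene. Both groups received the diet, so no library shows the liver without it. Peroxiredoxin 1 is a thiol peroxidase, and cysteine 52 is the residue that hydrogen peroxide oxidises. The labels state neither the strain, nor whether the allele was homozygous, nor that each library came from its own animal, so the p-values measure the spread between these libraries.

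Complement is a cascade of plasma proteins that marks microbes and dying cells, recruits leukocytes and punctures membranes. C1q and its proteases start the classical pathway, mannose-binding lectins, ficolins and collectins with the MASP proteases start the lectin pathway, and factors B and D and properdin amplify the deposition of C3 in the alternative pathway. All routes cleave C3 and then C5, whose larger fragment assembles with C6 to C9 into a membrane pore, while the small fragments C3a and C5a signal through receptors on leukocytes. Hepatocytes make most of the circulating components. C1q, properdin, ficolin A and the C3a and C5a receptors are made mainly by macrophages and other myeloid cells. From this textbook knowledge the genes were divided into 7 macrophage-made, 23 hepatocyte-made and 4 of other or mixed source. The division was not tested in these bulk data, and a gene counted as hepatocyte-made, such as Clu, can have other sources too.

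Estimated counts summed to between 60326469 and 76164949 per library, and about 4 of these counts stand for 1 fragment. Levels are given in FPKM, the deposited value per transcript length and library depth. Fold changes are Prdx1C52S minus WT on the log2 scale from edgeR after TMM scaling, with the SE. TMM scaling takes a gene without change to be the typical one, and FPKM does not. Over the 18931 genes tested, the median log2 fold change was -0.03 with TMM scaling and -0.34 with library totals alone. A hepatocyte gene that is slightly lower in FPKM can therefore have a log2 fold change near 0. Prdx1 was at 247 ± 12.2 FPKM in Prdx1C52S and 246 ± 20.7 FPKM in WT (SD, n = 3 each), which does not check the labels, since the allele changes 1 codon. Albumin (Alb) lay between 18120 and 22280 FPKM in all 6 libraries, as the labelled tissue would have it. WT 8 stood apart. Its 6 Kupffer cell markers summed to 36.3 FPKM, against 166 to 277 FPKM in the other 5 libraries, and its 8 cholangiocyte markers to 845 FPKM, against 63.7 to 360.5 FPKM. Where this library decides a member's value, the value without it is given too.

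Of the 7 macrophage-made genes, C1qa, C1qb, C1qc, C3ar1 and C5ar1 were at 0.375 to 0.514 times their WT level in FPKM in the Prdx1C52S livers. Their log2 fold changes after TMM scaling were -1.13 to -0.68. The other macrophage-made genes differed from these, with Fcna at 2.07 and Cfp at 0.973 times their WT level in FPKM. The hepatocyte-made genes were divided between lower, higher and little changed. Across all 6 libraries the quasi-likelihood test of edgeR called 0 of the 34 members at an adjusted p under 0.05, as it called 0% of the 18931 genes in either direction. Log2 fold changes were positive for 21 members and negative for 13, against 47% and 53% of all genes. At an unadjusted p under 0.05, 9 of the 34 members were lower and 7 were higher, against 14.8% of all genes tested that were lower and 11.5% that were higher. The macrophage-made genes accounted for 5 of the lower and 1 of the higher members, out of 7. The 23 hepatocyte-made genes held 4 lower and 4 higher members, shares near those of all genes. Of the 4 genes of other or mixed source, 2 were higher and 0 lower. Over the 34 members, the counts ran from 4 lower and 3 higher without Prdx1C52S 2 to 11 lower and 7 higher without WT 8. They were 5 lower and 4 higher without Prdx1C52S 1, 8 and 3 without Prdx1C52S 4, 5 and 5 without WT 6, and 7 and 7 without WT 9. The shares of all genes at that level were computed with all 6 libraries only. The counts without a library therefore cannot be read against a share. DESeq2 called 5 members lower and 5 higher at an adjusted p under 0.05, where it called 5.72% of all genes lower and 3.86% higher. In voom with library quality weights, 5 members were lower and 3 higher, against 5.08% and 5.15% of all genes. In limma on log2(FPKM + 1), 4 members were called lower and 0 higher, against 0.507% and 0.208% of all genes. Without WT 8, edgeR called 5 members lower and 1 higher, against 1.94% and 2.7% of all genes, and the 5 were the C1q genes and both receptors.

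The median log2 fold change was -0.70 over the macrophage-made members and 0.10 over the hepatocyte-made members, beside -0.03 over all genes tested. Without WT 8 these medians were -0.89 and -0.01. With library totals alone they were -0.98 and -0.19, so that the macrophage-made median lay below the hepatocyte-made one on either scale. In FPKM the groups did not overlap for 16 members that were lower and 7 that were higher in Prdx1C52S, where 36.7% of all genes tested were lower and 6.09% higher in the same way. The lower members included 5 of the 7 macrophage-made and 11 of the 23 hepatocyte-made genes. Summed over all 34 members, the level was 4057 ± 91.9 FPKM in Prdx1C52S and 4862 ± 164 FPKM in WT (SD, n = 3 each). The members thus took 1.01% of all FPKM in each Prdx1C52S library and 1.22% to 1.31% in the WT libraries. Macrophage-made genes made up 4.23% to 4.48% of the members' sum in Prdx1C52S and 5.98% to 7.06% in WT.

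**Figure D1:**
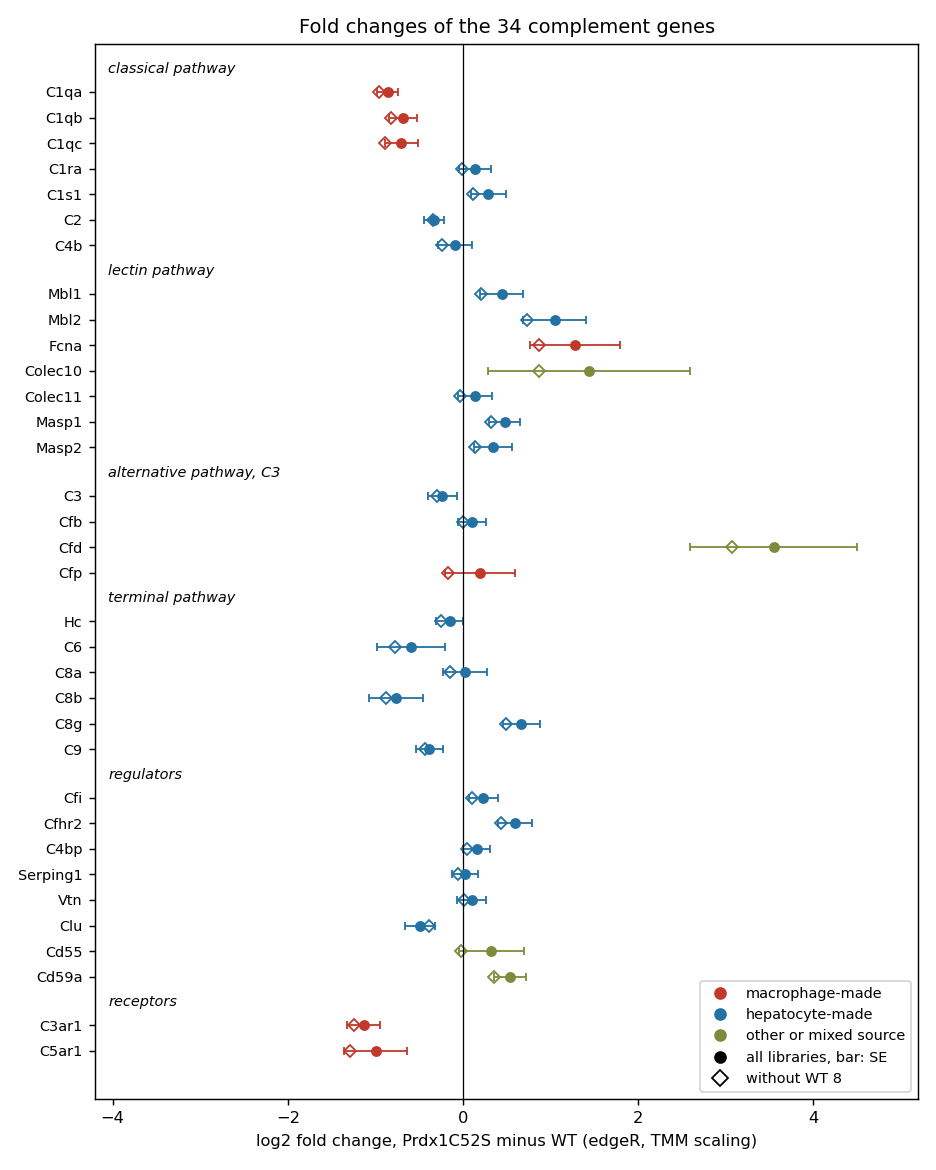
Log2 fold change (Prdx1C52S minus WT, edgeR with TMM scaling, x axis) of each of the 34 members (y axis), ordered by role, with the SE as a bar and the value without WT 8 as an open diamond. C1qa, C1qb, C1qc, C3ar1 and C5ar1 lie between -1.13 and -0.68, and Cfd is the farthest to the right at 3.55.

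C1q is the recognition molecule of the classical pathway and is built from 3 chains, each encoded by its own gene. The genes C1qb, C1qc and C1qa lie in this order within 18675 bases of the minus strand of chromosome 4 (136880129 to 136898803, GRCm38). All 3 chains were lower in Prdx1C52S, and no Prdx1C52S library reached a WT library. C1qa was at 48.6, 50.7 and 52.7 FPKM in Prdx1C52S 1, 2 and 4, against 112, 111 and 113 FPKM in WT 6, 8 and 9, with a difference of -0.86 in log2 units (SE 0.12, edgeR adjusted p = 0.0553). C1qb was at 59.2, 56.7 and 68.8 FPKM in Prdx1C52S, against 129, 111 and 119.6 FPKM in WT (-0.68, SE 0.16, edgeR adjusted p = 0.0853). C1qc was at 30.6, 29.6 and 32.7 FPKM in Prdx1C52S, against 67.8, 51.3 and 63.1 FPKM in WT (-0.70, SE 0.19, edgeR adjusted p = 0.0975). The WT libraries of C1qa differed by far less from each other than from any Prdx1C52S library. The edgeR adjusted p-values without WT 8 were 0.00566 for C1qa, 0.0139 for C1qb and 0.00729 for C1qc, with log2 fold changes of -0.96, -0.82 and -0.89. In bulk tissue, fewer cells of a type and less RNA per cell cannot be told apart.

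The proportions of the chains overlapped between the groups. The FPKM ratio of C1qc to C1qb was 0.504 ± 0.0258 in Prdx1C52S and 0.505 ± 0.0389 in WT, and that of C1qa to C1qb was 0.827 ± 0.0651 in Prdx1C52S and 0.937 ± 0.0601 in WT (SD, n = 3 each). The sum of the 3 chains was 143 ± 9.56 FPKM in Prdx1C52S and 292.5 ± 17.8 FPKM in WT. General macrophage markers moved with it. All 10 markers had negative fold changes, against 53% of all genes tested. At an unadjusted p under 0.05, 8 were lower, against 14.8% of all genes. Csf1r and Lyz2 were among these 8, and Adgre1 and Cd68 were not. The sum of the 10 markers ranged from 272 to 342 FPKM in Prdx1C52S and from 627 to 709.9 FPKM in WT. C1q divided by this sum was 0.422, 0.504 and 0.451 in Prdx1C52S 1, 2 and 4 and 0.435, 0.399 and 0.471 in WT 6, 8 and 9. Per unit of this marker sum, the C1q level overlapped between the genotypes, and a 3 against 3 exact permutation test could not go below p = 0.1. Divided by Csf1r alone, C1q was 10.97, 11.8 and 12.95 in Prdx1C52S 1, 2 and 4, against 13.93, 12.69 and 16.18 in WT 6, 8 and 9. Divided by Adgre1 alone, C1q was 14.27, 14.62 and 17.84 in Prdx1C52S, against 17.8, 26.31 and 18.07 in WT. Both of these ratios had a lower mean in Prdx1C52S, with groups that overlapped. In WT 8 the C1q sum was 273.4 FPKM, beside 308.6 and 295.4 FPKM in WT 6 and 9, although the Kupffer cell lectin Clec4f was at 2.56 FPKM there, beside 44.8 and 46 FPKM. C1q divided by the sum of the 6 Kupffer cell markers was 0.696, 0.639 and 0.927 in Prdx1C52S, against 1.25, 7.53 and 1.06 in WT 6, 8 and 9. The part of macrophage content in the C1q difference was not tested beyond these ratios.

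**Figure D2:**
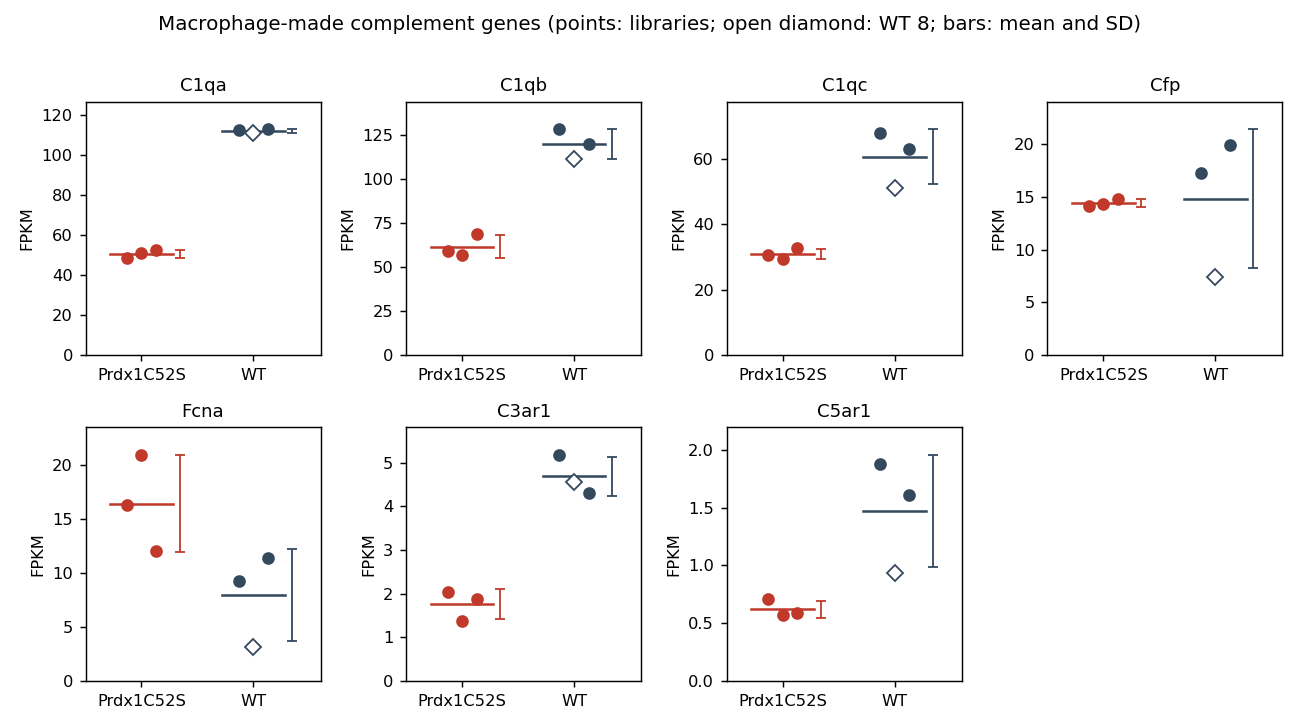
FPKM (y axis) of the 7 macrophage-made members in the Prdx1C52S and WT libraries (points, with WT 8 as an open diamond), with the mean as a line and the SD as a bar. The 3 C1q genes and both receptors are lower in each Prdx1C52S library than in any WT library, Fcna is higher, and Cfp differs mainly by WT 8, at 7.37 FPKM.

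The receptors for C3a and C5a, which draw and activate myeloid cells, were low in level and lower in Prdx1C52S. C3ar1 was at 2.03, 1.37 and 1.88 FPKM in Prdx1C52S 1, 2 and 4, against 5.19, 4.57 and 4.32 FPKM in WT 6, 8 and 9 (-1.13 on the log2 scale, SE 0.19, edgeR adjusted p = 0.0611, and 0.0176 without WT 8). C5ar1 was at 0.707, 0.57 and 0.584 FPKM in Prdx1C52S, against 1.87, 0.933 and 1.61 FPKM in WT (-0.99, SE 0.36, edgeR adjusted p = 0.143). Without WT 8, which had the lowest WT level, C5ar1 was at -1.29 with an edgeR adjusted p = 0.0280. The groups did not overlap in FPKM for either receptor, and after TMM scaling those of C5ar1 did.

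The other macrophage-made members did not follow C1q. Ficolin A (Fcna), a lectin that binds sugars and acetylated groups on microbes, was at 16.3, 21 and 12.1 FPKM in Prdx1C52S 1, 2 and 4, against 9.28, 3.17 and 11.4 FPKM in WT 6, 8 and 9. It was thus higher in each Prdx1C52S library, with a log2 fold change of 1.28 (SE 0.52, edgeR adjusted p = 0.179). WT 8 moved it most, and without that library the log2 fold change was 0.87 (edgeR adjusted p = 0.102). The ratio of Fcna to the C1q sum was 0.118, 0.153 and 0.0782 in Prdx1C52S, against 0.0301, 0.0116 and 0.0385 in WT, and did not overlap between the groups. The ratio of Fcna to the Kupffer cell gene Clec4f was 0.434, 0.46 and 0.411 in Prdx1C52S, against 0.207, 1.24 and 0.248 in WT, and overlapped through WT 8. Properdin (Cfp), which stabilises the alternative pathway convertase, was at 14.2, 14.4 and 14.8 FPKM in Prdx1C52S, against 17.3, 7.37 and 19.9 FPKM in WT (0.19, SE 0.40, edgeR adjusted p = 0.79). The Cfp groups overlapped only through WT 8, and its log2 fold change was -0.17 without that library. A library lacking most Kupffer cell transcripts was thus also the lowest in Fcna and Cfp, and the part of Kupffer cell content in these values was not tested beyond this ratio. The Kupffer cell markers had 6 of 6 positive fold changes with all libraries and a median of -0.18 without WT 8, and summed to between 166 and 214 FPKM in Prdx1C52S and to between 36.3 and 277 FPKM in WT. In WT 8 the marker Timd4 was listed at 0, but it was low throughout. Its level was 1.25, 2.17 and 0.624 FPKM in Prdx1C52S 1, 2 and 4, and 0.662 and 0.882 FPKM in WT 6 and 9.

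**Figure D3:**
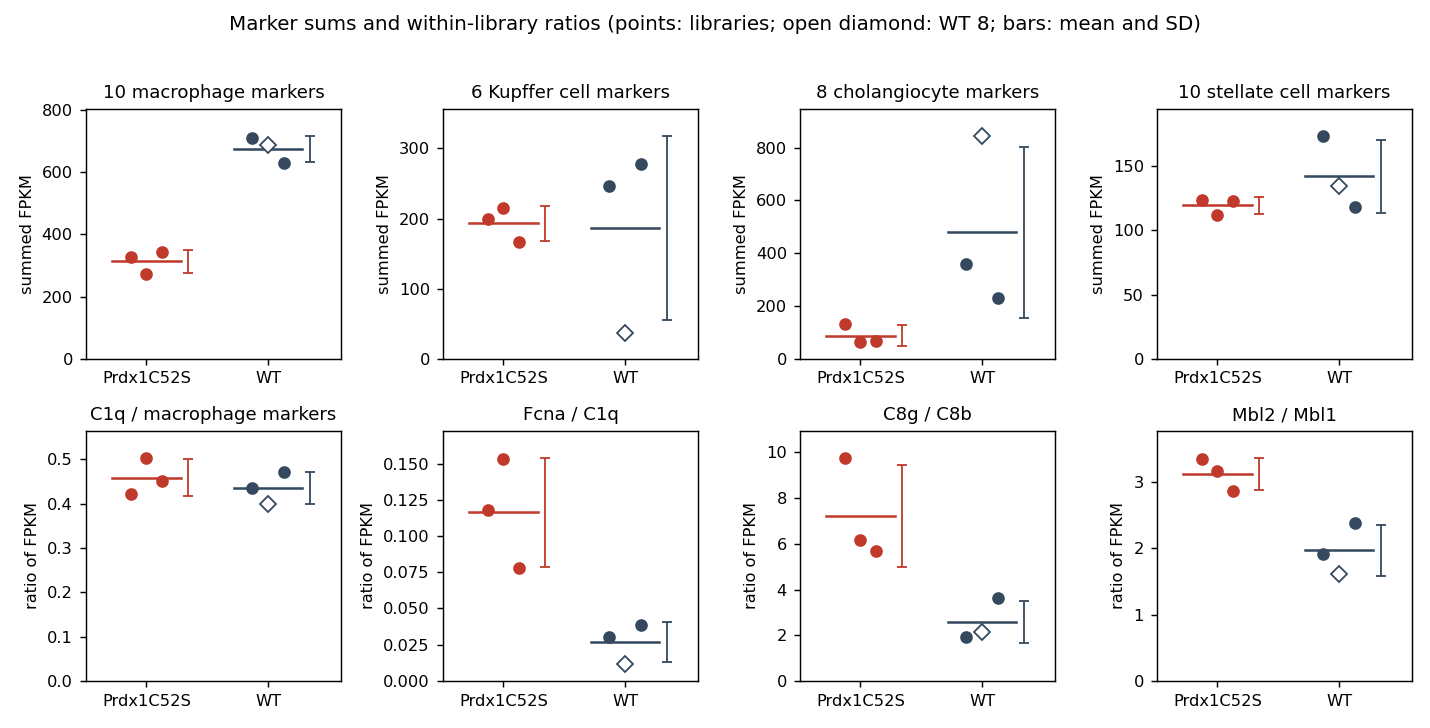
Summed FPKM of 4 marker lists (upper row) and FPKM ratios within a library (lower row) in the Prdx1C52S and WT libraries (points, with WT 8 as an open diamond), with the mean as a line and the SD as a bar. General macrophage markers are lower in Prdx1C52S, the ratio of C1q to them overlaps, and WT 8 is far below the rest in Kupffer cell markers.

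Start regions of 5 members are printed to show what surrounds the genes on which these contrasts rest, namely C1qb and C1qc, which were lower together, Fcna, which was higher although also macrophage-made, and the hepatocyte genes C3 and Mbl2, which lay on opposite sides of 0. RefSeq windows of GRCm38.p6, with 250 bases before and 50 after the annotated start, were matched by symbol for 25 of the 34 members in 27 windows. C1qa, C2, C4b, Cfb, Cfi, Clu, Colec10, Masp1 and Serping1 had none. Capitals mark matches on either strand to GAGGAAG, a core bound by ETS factors such as PU.1, to TTNCGCAA or TTGCNNAA for C/EBP, to TTCNNNGAA for STAT, to the kappaB motif of NF-kB, to the E box CANGTG and to TATAAA. The windows are chr4:136886151-136886450 for C1qb and chr4:136892865-136893164 for C1qc, both on the minus strand, chr2:25627925-25628224 on the minus strand for Fcna, chr17:57228087-57228386 on the minus strand for C3 and chr19:30232678-30232977 on the plus strand for Mbl2. The letters run 5′ to 3′ on the strand of the gene.
C1qb: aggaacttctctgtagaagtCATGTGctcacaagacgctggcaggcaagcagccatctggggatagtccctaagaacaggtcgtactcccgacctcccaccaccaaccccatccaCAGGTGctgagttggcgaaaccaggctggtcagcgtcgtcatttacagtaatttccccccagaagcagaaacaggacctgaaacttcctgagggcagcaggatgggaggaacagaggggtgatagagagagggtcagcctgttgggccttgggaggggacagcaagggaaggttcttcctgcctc
C1qc: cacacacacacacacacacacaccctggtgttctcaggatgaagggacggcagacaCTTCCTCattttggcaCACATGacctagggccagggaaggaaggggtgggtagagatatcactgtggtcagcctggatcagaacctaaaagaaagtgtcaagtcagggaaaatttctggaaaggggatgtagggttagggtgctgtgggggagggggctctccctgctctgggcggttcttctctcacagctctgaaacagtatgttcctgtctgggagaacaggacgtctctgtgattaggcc
Fcna: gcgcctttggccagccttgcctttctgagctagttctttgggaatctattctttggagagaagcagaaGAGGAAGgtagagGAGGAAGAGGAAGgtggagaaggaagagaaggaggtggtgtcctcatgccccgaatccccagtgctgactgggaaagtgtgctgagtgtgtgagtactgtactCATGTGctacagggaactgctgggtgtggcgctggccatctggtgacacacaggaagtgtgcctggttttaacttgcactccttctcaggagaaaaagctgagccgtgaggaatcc
C3: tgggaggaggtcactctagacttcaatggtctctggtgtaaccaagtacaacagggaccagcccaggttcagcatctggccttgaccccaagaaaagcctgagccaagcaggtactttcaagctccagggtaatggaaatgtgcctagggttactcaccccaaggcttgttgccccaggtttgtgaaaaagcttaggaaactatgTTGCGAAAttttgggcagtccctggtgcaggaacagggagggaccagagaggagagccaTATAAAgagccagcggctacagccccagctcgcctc
Mbl2: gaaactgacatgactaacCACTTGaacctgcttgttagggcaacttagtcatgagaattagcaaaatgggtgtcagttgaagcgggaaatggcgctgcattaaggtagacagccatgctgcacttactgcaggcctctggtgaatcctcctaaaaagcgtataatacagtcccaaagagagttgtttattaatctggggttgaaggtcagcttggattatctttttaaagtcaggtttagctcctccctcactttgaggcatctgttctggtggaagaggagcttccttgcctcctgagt
GAGGAAG was found in 2 of the 27 member windows, once in C1qc and 3 times in Fcna, and in 13.6% of all 32851 windows. Both were macrophage-made, out of 6 such windows, and the 18 hepatocyte-made windows held none. TTGCNNAA was in 4 member windows, all hepatocyte-made (C1ra, C1s1, C3 and C9), against 10.8% of all windows, and TTNCGCAA was in C3 alone (0.798% of all windows), where both patterns overlap at the same bases. TTCNNNGAA was in 6 member windows, all hepatocyte-made, against 8.3% of all windows. The kappaB motif was in 0 of the member windows and in 0.411% of all windows. The E box was in 13 and TATAAA in 4 of the member windows, against 44.9% and 13.6% of all windows. These are matches of letters in a window, not sites of binding.

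Of the other classical pathway genes, which are made by hepatocytes, C2 was lower and the C1 proteases were not. C2, the protease of the classical convertase, was at 17.1, 14.2 and 16.5 FPKM in Prdx1C52S 1, 2 and 4, against 25.2, 27.9 and 21 FPKM in WT 6, 8 and 9, without overlap (log2 fold change -0.33, SE 0.11, edgeR adjusted p = 0.129). C1ra and C1s1 encode the proteases that C1q activates and lie 6901 bases apart on chromosome 6. Their log2 fold changes were 0.14 (SE 0.19, edgeR adjusted p = 0.679) and 0.29 (SE 0.20, edgeR adjusted p = 0.394), with FPKM groups that overlapped. C4b, whose product forms the convertase with C2, was at 185 ± 8.61 FPKM in Prdx1C52S and 238 ± 20.6 FPKM in WT (SD, n = 3 each), and at -0.09 on the scaled log2 axis (SE 0.19, edgeR adjusted p = 0.788). C4b and C1ra have close paralogs, C4a and C1rb, and how reads shared between them were assigned is not given. C2 ends 85 bases from Cfb on the same strand of chromosome 17, so fragments at their junction may be hard to assign, and yet the 2 genes differed. Factor B (Cfb), the protease of the alternative convertase, had a log2 fold change of 0.10 (SE 0.16, edgeR adjusted p = 0.724), which was -0.19 with library totals alone, and the ratio of Cfb to C2 was 16.4, 17.9 and 17.7 in Prdx1C52S, against 12.3, 11 and 15.3 in WT.

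In the lectin pathway, all 7 members had positive log2 fold changes with TMM scaling and all 6 libraries, against 47% of all genes tested. Of them, 3 had an unadjusted p under 0.05, against 11.5% of all genes that were higher in this way. WT 8 was the lowest WT library in FPKM for each of the 7. Their median log2 fold change was 0.47 with all libraries and 0.32 without WT 8. Mannose-binding lectin C (Mbl2) was at 250.3, 285 and 224 FPKM in Prdx1C52S 1, 2 and 4, against 141, 87.4 and 207 FPKM in WT 6, 8 and 9. All Prdx1C52S libraries lay above all WT libraries, and the log2 difference was 1.05 (SE 0.36, edgeR adjusted p = 0.134). It was 0.73 without WT 8 (edgeR adjusted p = 0.0780), and with all libraries DESeq2 called it at an adjusted p = 0.0145 and voom with quality weights at an adjusted p = 0.0365. Mannose-binding lectin A (Mbl1), a paralog, was at 74.9, 90 and 78.3 FPKM in Prdx1C52S, against 73.2, 54.3 and 87.1 FPKM in WT, with overlapping groups (0.44, SE 0.25, edgeR adjusted p = 0.293, and 0.21 without WT 8). The ratio of Mbl2 to Mbl1 was 3.34, 3.17 and 2.86 in Prdx1C52S, against 1.92, 1.61 and 2.38 in WT. The MASP proteases, which the lectins activate, were little apart in FPKM. Masp1 was at 14 ± 0.438 FPKM in Prdx1C52S and 12.2 ± 1.65 FPKM in WT (log2 fold change 0.47, SE 0.17, edgeR adjusted p = 0.146), and Masp2 at 47.7 ± 1.89 and 45.1 ± 8.3 FPKM in the same order (0.35, SE 0.22, edgeR adjusted p = 0.344; SD, n = 3 each). Masp1 and Masp2 are among 9 members that overlap a gene on the other strand. The rest of these are C2, C8a, C8g, Cd55, Colec10, Fcna and Hc, and whether counting used the strand is not given.

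The collectins differed from each other. Collectin 10 (Colec10), which is made by stellate cells in liver, was at 6.57, 8.56 and 6.3 FPKM in Prdx1C52S 1, 2 and 4, against 4.25, 0.0459 and 4.74 FPKM in WT 6, 8 and 9. Every Prdx1C52S library was above every WT library, and WT 8 was nearly without the transcript. With all libraries the log2 difference was 1.44 (SE 1.15, edgeR adjusted p = 0.464). Leaving out WT 8 made it 0.86, which passed (SE 0.16, edgeR adjusted p = 0.0317). It was the only member that edgeR called higher in that comparison. The stellate cell markers were mixed. Of 10 markers, Colec10 included, 4 had positive and 6 negative fold changes, and the sum of the other 9 was 104 to 117 FPKM in Prdx1C52S and 113 to 169.6 FPKM in WT. Ecm1, Lrat and Reln had positive fold changes like Colec10 and were likewise lowest in WT 8. Ecm1 was at 37.4, 40.8 and 38.4 FPKM in Prdx1C52S, against 32.7, 17.6 and 25.8 FPKM in WT (0.87, edgeR adjusted p = 0.12, and 0.60 with an adjusted p = 0.0368 without WT 8). The part of stellate cell content in the Colec10 difference was not tested. The ratio of Colec10 to Lrat, the enzyme that stores retinol in these cells, was 0.804, 1.36 and 0.818 in Prdx1C52S, against 0.623, 0.0159 and 0.706 in WT. In WT 8, Lrat was at 2.88 FPKM, so that Colec10 was low there beyond this marker. Collectin 11 (Colec11) was at 28.7 ± 1.76 FPKM in Prdx1C52S and 31.3 ± 6.02 FPKM in WT (log2 fold change 0.14, SE 0.19, edgeR adjusted p = 0.678; SD, n = 3 each), and at -0.04 without WT 8.

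C3, on which all pathways meet, had the highest level of the members in WT. It was at 616, 605 and 577 FPKM in Prdx1C52S 1, 2 and 4, against 857, 909.6 and 819 FPKM in WT 6, 8 and 9. The groups did not overlap in FPKM or after TMM scaling, although the scaled difference was small (-0.23 on the log2 scale, SE 0.17, edgeR adjusted p = 0.4, and -0.53 with library totals alone). C3 amounted to 2.80% ± 0.0976 of the albumin level in Prdx1C52S and 4.61% ± 0.355 in WT (SD, n = 3 each). Albumin itself was higher in every Prdx1C52S library, which widens the difference in this ratio. Its level was 21400 ± 786 FPKM in Prdx1C52S and 18710 ± 821.5 FPKM in WT (log2 fold change 0.475, edgeR adjusted p = 0.211). Within the members' sum, C3 held 14.1% to 15.6% in Prdx1C52S and 17% to 18.8% in WT.

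Factor D (Cfd, adipsin), the protease that activates factor B, had the largest fold change of the members in the edgeR fit with all libraries. It was at 39.1, 110.0 and 24.4 FPKM in Prdx1C52S 1, 2 and 4, against 12.4, 1.58 and 3.38 FPKM in WT 6, 8 and 9. The groups did not overlap, but the libraries of each group spread widely, and the log2 difference was 3.55 (SE 0.95, edgeR adjusted p = 0.102). It was 2.66 without Prdx1C52S 2 and 4.84 without WT 6. DESeq2 called it at an adjusted p = 0.00946, while voom with library quality weights gave an adjusted p = 0.0754. Adipocytes are the main source of factor D in the body. Of their markers, Plin1 was at 0, 0 and 0.0116 FPKM in Prdx1C52S and 0, 0 and 0.006 FPKM in WT, and Lep was listed at 0 in 5 of 6 libraries and at 0.0136 FPKM in WT 9. The list has 6 markers with a row, Cfd among them, and the sum of the other 5 was 109.5, 81.8 and 105 FPKM in Prdx1C52S and 125.5, 70 and 144 FPKM in WT, with overlap. Most of this sum was Cidec and Cidea, whose fold changes had opposite signs, so its overlap gives no measure of adipocyte content. The lipid droplet gene Cidec was at 56.4, 36.9 and 44 FPKM in Prdx1C52S and 85.7, 51.2 and 119.5 FPKM in WT (-0.66, edgeR adjusted p = 0.291). Cidea, a lipid droplet protein that fatty hepatocytes also express, was at 46.3, 39.2 and 55.9 FPKM in Prdx1C52S and 26.4, 2.7 and 13.6 FPKM in WT, and Fabp4 at 5.85 ± 0.876 FPKM in Prdx1C52S and 13.3 ± 2.82 FPKM in WT (SD, n = 3 each).

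**Figure D4:**
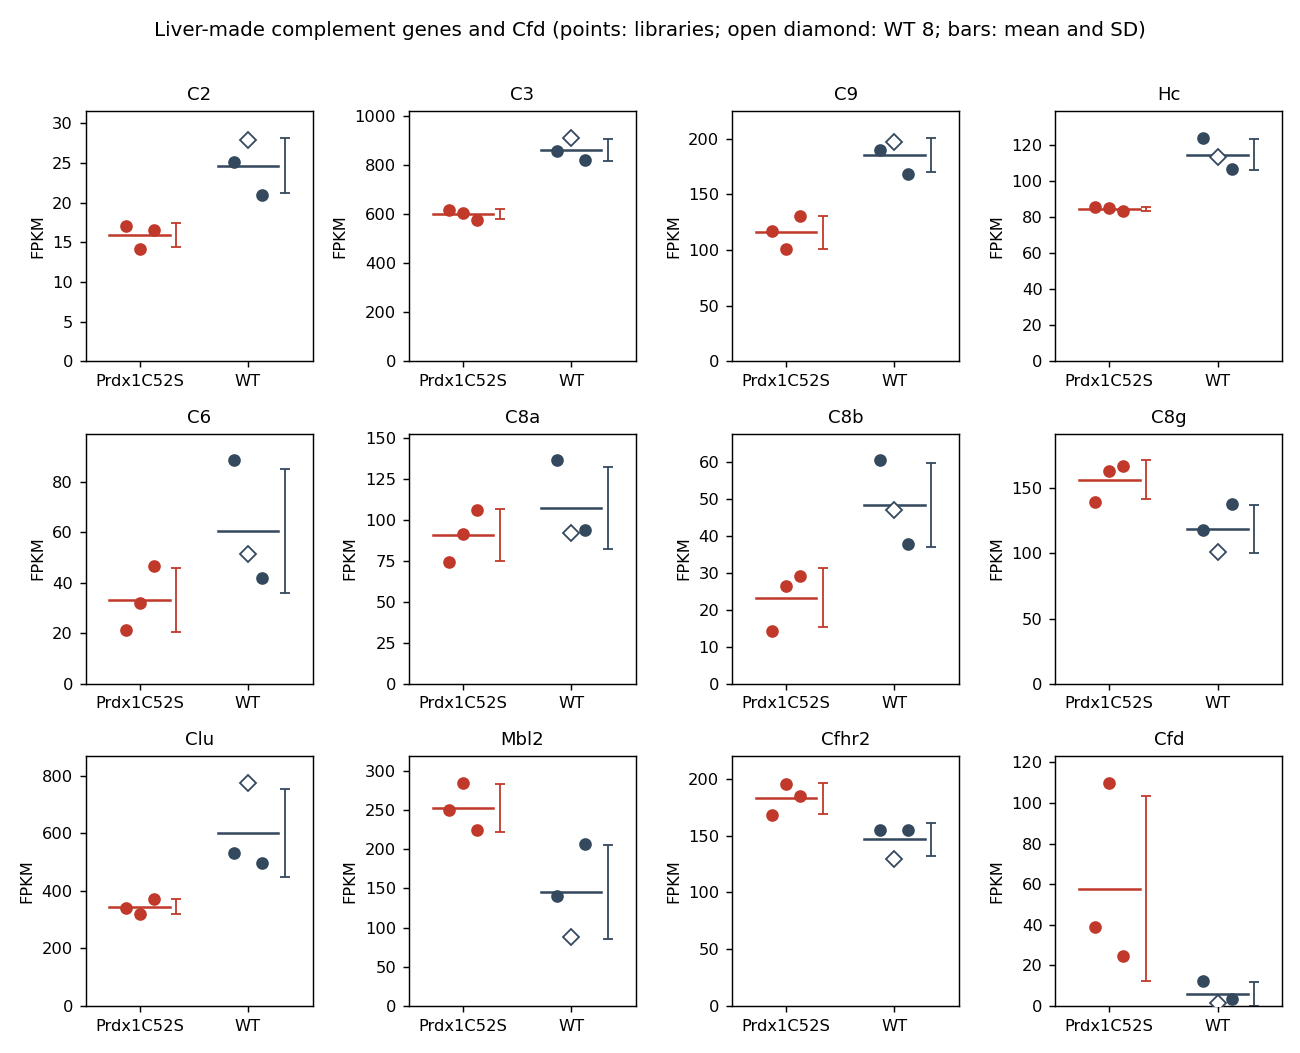
FPKM (y axis) of 11 hepatocyte-made members and Cfd in the Prdx1C52S and WT libraries (points, with WT 8 as an open diamond), with the mean as a line and the SD as a bar. C2, C3, C9, Hc, C8b and Clu are lower and C8g, Mbl2, Cfhr2 and Cfd higher in every Prdx1C52S library, while C6 and C8a overlap.

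The terminal components were not uniform. Hc, which encodes C5, was at 85.3, 85 and 83.3 FPKM in Prdx1C52S 1, 2 and 4, against 124, 113 and 107 FPKM in WT 6, 8 and 9, without overlap in FPKM but with a log2 fold change of only -0.15 (SE 0.16, edgeR adjusted p = 0.571). C9, which polymerises into the wall of the pore, was at 117, 101 and 130.3 FPKM in Prdx1C52S, against 190.2, 197 and 168 FPKM in WT (-0.38, SE 0.15, edgeR adjusted p = 0.169). C6, which binds activated C5, varied more within groups than most members, with 21.1, 32 and 46.5 FPKM in Prdx1C52S and 88.6, 51.4 and 41.7 FPKM in WT. Its groups overlapped, and its log2 fold change of -0.59 (SE 0.39, edgeR adjusted p = 0.371) was -0.14 without WT 6.

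The 3 chains of C8, which inserts the pore into the membrane, differed in direction. C8b was at 14.3, 26.5 and 29.3 FPKM in Prdx1C52S 1, 2 and 4, against 60.6, 47.1 and 37.8 FPKM in WT 6, 8 and 9 (log2 fold change -0.77, SE 0.31, edgeR adjusted p = 0.176). C8a, which lies 11130 bases from C8b on the other strand of chromosome 4, was at 74.3, 91.3 and 106 FPKM in Prdx1C52S, against 136, 92.1 and 93.8 FPKM in WT (0.03, SE 0.25, edgeR adjusted p = 0.96). Both were lowest in Prdx1C52S 1 and highest in WT 6, as was C6. C8g, the lipocalin-like chain encoded on chromosome 2, was at 139, 163 and 167 FPKM in Prdx1C52S, against 118, 101 and 138 FPKM in WT (0.67, SE 0.21, edgeR adjusted p = 0.117, and 0.49 without WT 8). DESeq2 called it at an adjusted p = 0.0198 and voom at an adjusted p = 0.0382. The ratio of C8g to C8b was thus 9.77, 6.15 and 5.7 in Prdx1C52S and 1.94, 2.14 and 3.64 in WT, without overlap. C8g overlaps Fbxw5 on the other strand, and reads of the pair may not have been told apart.

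Among the regulators, clusterin was lower, Cfhr2 and Cd59a were higher, and the main plasma inhibitors differed little after scaling. Clusterin (Clu), a chaperone that blocks the assembly of the pore, was at 339, 320.4 and 372 FPKM in Prdx1C52S 1, 2 and 4, against 531, 776 and 496 FPKM in WT 6, 8 and 9 (log2 fold change -0.49, SE 0.17, edgeR adjusted p = 0.131). WT 8, the library with the most cholangiocyte transcripts, was the highest, and without it the log2 fold change was -0.39. Clu is also transcribed by bile duct cells, whose 8 markers had 8 of 8 negative fold changes with and without WT 8 (median -2.93, and -1.57 without it) and summed to 63.7 to 133 FPKM in Prdx1C52S and 231 to 845 FPKM in WT. Most of each sum was the 1 gene Spp1, at 125.5, 60.1 and 63.4 FPKM in Prdx1C52S and 342, 736 and 220 FPKM in WT. The part of bile duct cells in the Clu level was not tested. Cfhr2, a relative of factor H, was at 168, 195 and 185 FPKM in Prdx1C52S, against 155, 129 and 155 FPKM in WT (0.59, SE 0.19, edgeR adjusted p = 0.123, and 0.43 without WT 8). DESeq2 called Cfhr2 at an adjusted p = 0.0222 and voom with quality weights at an adjusted p = 0.0495. Cd59a, which sits on cells and blocks the last step of pore assembly, was at 36.7, 35.3 and 35.7 FPKM in Prdx1C52S, against 33.2, 25.2 and 31.2 FPKM in WT (0.53, SE 0.18, edgeR adjusted p = 0.129, and 0.35 without WT 8).

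The C1 inhibitor gene Serping1 was at 192 ± 8.71 FPKM in Prdx1C52S and 230.2 ± 20.3 FPKM in WT, and vitronectin (Vtn), which also blocks the pore, at 532 ± 26.8 FPKM in Prdx1C52S and 606 ± 47.4 FPKM in WT (SD, n = 3 each). Both were lower in FPKM in every Prdx1C52S library, and their log2 fold changes after TMM scaling were 0.02 (SE 0.15) and 0.10 (SE 0.17). C4bp, the cofactor that inactivates C4b, lay without overlap at 80.1 ± 1.77 FPKM in Prdx1C52S and 87.4 ± 2.6 FPKM in WT, and at 0.15 (SE 0.16) on the scaled log2 scale. With library totals alone these 3 log2 fold changes were -0.27, -0.20 and -0.13. Factor I (Cfi), the protease that cleaves C3b and C4b, was at 193 ± 4.33 FPKM in Prdx1C52S and 199.6 ± 11.7 FPKM in WT, with overlap (0.23, SE 0.17). Cd55, which dissociates convertases on cells, was at 2.59 ± 0.149 FPKM in Prdx1C52S and 2.45 ± 1.01 FPKM in WT, where WT 8 was the lowest at 1.31 FPKM (0.32, SE 0.37, and -0.03 without WT 8). The direction for Serping1, Vtn, C4bp and Cfi thus depended on the scaling, and none of the 4 was called in any of the 15 alternatives run.

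**Figure D5:**
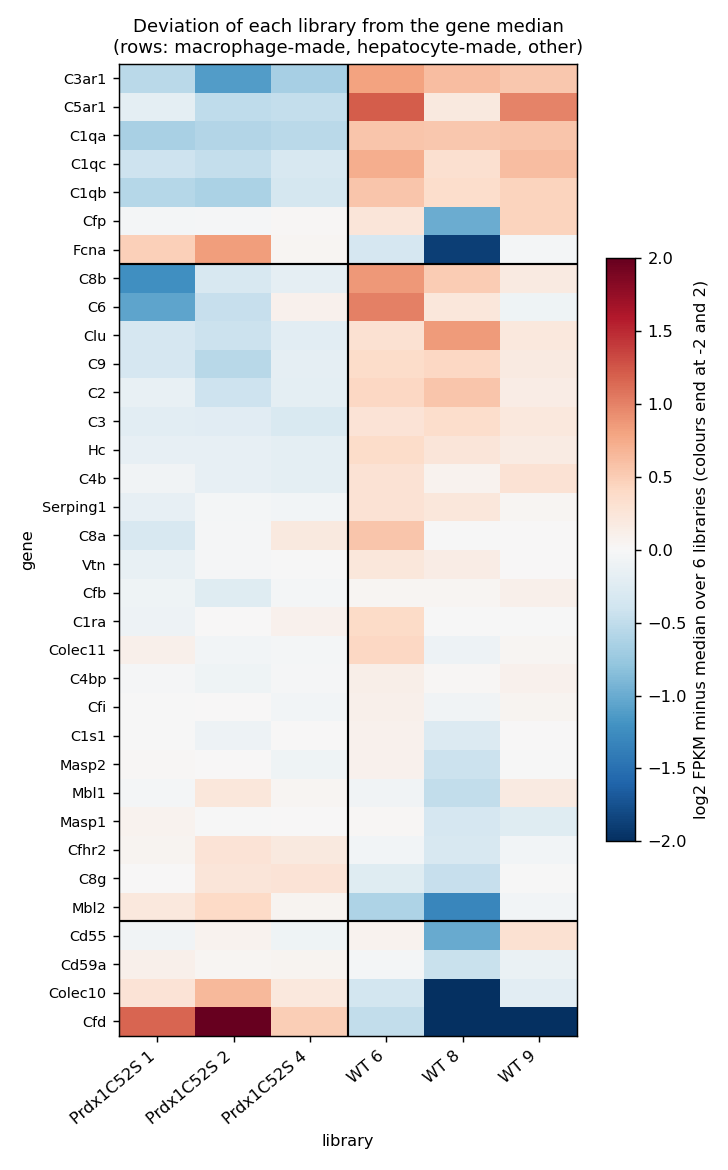
Deviation of log2 FPKM of each library (columns) from the median over the 6 libraries of that gene (rows, ordered within the macrophage-made, hepatocyte-made and other genes by fold change). The C1q genes and receptors are blue in Prdx1C52S and red in WT. WT 8 is the lowest WT library for Fcna, Mbl2, Colec10 and Cfd, and colours end at -2 and 2.

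Of 21 further genes of the pathway, all tested, 10 had positive and 11 negative log2 fold changes, with a median of -0.01. At an unadjusted p under 0.05, 6 were lower and 3 higher, against 14.8% and 11.5% of all genes tested, so that the higher share lay near that of all genes. With all libraries 0 passed an edgeR adjusted p of 0.05. The lower genes were the complement receptor integrins Itgam, Itgax and Itgb2, Cd93, which is expressed on endothelium and myeloid cells, the terminal component C7 and Cr2, a complement receptor of B cells. Cr2 was at 0.0646, 0.0408 and 0.0336 FPKM in Prdx1C52S 1, 2 and 4, against 0.113, 0.429 and 0.0737 FPKM in WT 6, 8 and 9, and its log2 fold change of -1.71 (edgeR adjusted p = 0.146) was -0.78 without WT 8 (edgeR adjusted p = 0.364). Without that library 5 of the 21 genes were lower at an unadjusted p under 0.05, and the share of all genes in that fit was not computed. Itgam, the alpha chain of complement receptor 3, was at 0.462, 0.539 and 0.539 FPKM in Prdx1C52S 1, 2 and 4, against 2.66, 2.66 and 1.91 FPKM in WT 6, 8 and 9 (log2 fold change -1.93, edgeR adjusted p = 0.0553). C7 was at 0.334, 0.263 and 0.442 FPKM in Prdx1C52S and 1.08, 2.47 and 0.762 FPKM in WT (-1.68, edgeR adjusted p = 0.0896). The higher genes included C1rl and Cfhr3. Cfhr3, a relative of factor H, was at 5.09, 6.94 and 5.43 FPKM in Prdx1C52S and 3.82, 3.72 and 4.07 FPKM in WT (0.87, edgeR adjusted p = 0.0886). It shares sequence with Cfhr2, and reads may have been split between the family's genes. The receptor Vsig4, which Kupffer cells use to bind C3b, was at 24, 26 and 16 FPKM in Prdx1C52S and 31.6, 4.46 and 35.7 FPKM in WT (0.08, edgeR adjusted p = 0.954, and -0.42 without WT 8). Without WT 8, edgeR called 3 of these 21 genes lower, Itgam, Itgb2 and Cd93, and 2 higher, C1rl among them, against 1.94% and 2.7% of all genes.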

How the data were processed

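Liver mRNA (3 Prdx1C52S and 3 WT libraries) was selected with oligo(dT) beads, its second cDNA strand marked with uracil, and sequenced as paired ends, per the labels' protocols. Of tools, StringTie 1.3.4d, HISAT2 2.0.4, cutadapt 1.9, edgeR, DESeq2 and UMI-tools are listed without role or order in the submitters' processing notes, as is the build mm9. The gene positions are those of GRCm38: 26753 of the 29642 identifiers found in GENCODE M21, and 32 of the 34 members, have the identical position. The authors made the FPKM columns, going by the file headers. The estimated counts in the authors' table are whole numbers, and among the low ones 4 is commonest (6204 times, against 3538 times for 3 and 1965 times for 5), so that count models treat low genes as more precise than they are. The sources used here do not say whether counting used the strand, collapsed the molecular identifiers of the adapters or divided shared reads.

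The main test used edgeR 4.0.16 under R 4.3.3 (filterByExpr, TMM, robust quasi-likelihood F-test, two-sided, Benjamini-Hochberg adjustment over 18931 genes, threshold 0.05), with no covariate. SEs were obtained from the fold change and the F statistic. TMM factors were 0.883 to 0.92 in Prdx1C52S and 1.03 to 1.28 in WT, which raises Prdx1C52S values relative to FPKM. DESeq2 1.42.0, limma 3.58.1 (voom, and log2(FPKM + 1) or log2(FPKM + 0.1)), other scalings, no filter, counts divided by 4 and leaving out each library were alternatives. The scripts were tested on simulated counts. Members, gene lists, source classes and motifs came from textbook knowledge and were chosen with earlier results of these data known, and all members are named. Lists were described by counts and medians. Adipoq, Retn and Cd55b were not analysed here. The values of 1 listed gene are not reported here.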

Additional observations from a re-analysis of the deposited data

How the results depend on the processing

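With all 6 libraries edgeR called 0 genes higher and 0 lower, and 0 and 0 members. Higher and lower genes called were 35 and 125 with library totals alone, 105 and 91 with no filter, 1145 and 1698 in DESeq2, 39 and 95 in limma on log2(FPKM + 1), 53 and 209 on log2(FPKM + 0.1), 0 and 1 on log2(FPKM + 1) with no filter, 975 and 962 in voom with quality weights, and 43 and 40 after counts were divided by 4. Leaving out 1 library in turn gave 0 to 522 higher and 0 to 375 lower, with calls only without WT 8 and without WT 9 (63 and 69). Members called were 5 higher in DESeq2 and 3 in voom, and lower were 4 with library totals, 2 with no filter, 5 in DESeq2 and in voom, 4 in limma at either pseudocount, 1 in limma with no filter and 1 after division by 4. Without each library in turn, 0 to 1 were called higher and 0 to 5 lower. Members at an unadjusted p under 0.05 (9 lower, 7 higher) were 14 lower with library totals and in limma at either pseudocount, and 4 to 11 lower and 3 to 7 higher without each library in turn. Acute-phase genes lower at that level (5) were 16 with library totals, 9 in DESeq2, 14 in limma at either pseudocount, 13 in limma with no filter, 11 in voom and 2 to 12 without each library in turn, with 0 to 1 higher. The share of all genes at an unadjusted p under 0.05 was computed for the main fit only. With library totals the median of all genes tested was itself negative (-0.34), so these counts do not single out members or acute-phase genes.

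The median of macrophage-made members was -0.98 with library totals and -0.89 to -0.58 without each library in turn, and that of hepatocyte-made members -0.19 with library totals, -0.18 in the 3 limma fits and -0.01 to 0.22 without each library. Limma on log2(FPKM + 1) moved the median of all genes by -0.14, and on log2(FPKM + 0.1) by -0.25. The fold changes of 24 members kept their sign throughout the 15 alternatives. The sign of 10 reversed. With library totals, limma at +1, +0.1 and +1 with no filter, the log2 fold change was -0.15, -0.13, -0.13 and -0.13 for C1ra, -0.26, -0.235, -0.24 and -0.235 for C8a, -0.19, -0.18, -0.18 and -0.18 for Cfb, -0.055, -0.044, -0.0445 and -0.044 for Cfi, -0.14, -0.11, -0.11 and -0.11 for Colec11, -0.13, -0.12, -0.13 and -0.12 for C4bp, -0.27, -0.26, -0.26 and -0.26 for Serping1, and -0.20, -0.18, -0.185 and -0.18 for Vtn, while Cfp was -0.049 with library totals. In voom it was -0.038 for C1ra, -0.19 for C8a, -0.062 for Colec11, -0.083 for Serping1 and -0.0057 for Vtn. Without each library in turn it ran from -0.011 to 0.34 for C1ra, -0.15 to 0.29 for C8a, -0.17 to 0.51 for Cfp, -0.040 to 0.36 for Colec11, -0.053 to 0.13 for Serping1 and -0.026 to 0.63 for Cd55. The causes of these changes were not tested. No paired analysis was possible because the groups share no replicate numbers.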

Other observations

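Acute-phase proteins, which hepatocytes secrete with complement in inflammation, and the genes that control them were mostly lower in Prdx1C52S with all 6 libraries. Of 23 genes, all tested, 21 had negative and 2 positive log2 fold changes, against 53% and 47% of all genes tested. Their median was -0.32, beside -0.03 over all genes tested. At an unadjusted p under 0.05, 5 were lower (Lcn2, Socs3, Saa2, Il6ra and Itih3) and 0 higher, against 14.8% and 11.5% of all genes tested. None passed an edgeR adjusted p of 0.05 with all libraries. DESeq2 called 5 lower, against 5.72% of all genes, and voom with library quality weights 6, against 5.08%. Lipocalin 2 (Lcn2), which binds bacterial iron carriers, was at 21.5, 11.4 and 18.9 FPKM in Prdx1C52S 1, 2 and 4, against 43, 60.8 and 92.6 FPKM in WT 6, 8 and 9, without overlap (log2 fold change -1.65, edgeR adjusted p = 0.0819). Serum amyloid A2 (Saa2) was at 33.3, 23.5 and 26.3 FPKM in Prdx1C52S, against 65.4, 36.4 and 143 FPKM in WT (-1.33, edgeR adjusted p = 0.172, and -0.58 without WT 9). Socs3, the feedback inhibitor of cytokine signalling, was at 1.69, 1.29 and 1.67 FPKM in Prdx1C52S, against 5.15, 9.08 and 3 FPKM in WT (-1.54, edgeR adjusted p = 0.0774). Without WT 8, edgeR called 4 of the 23 lower, namely Cebpb, Cebpd, Il6ra and Socs3, against 1.94% of all genes. WT 9 was the highest library for Fga, Fgg, Orm1 and Lbp, among others. Their log2 fold changes of -0.25, -0.24, -0.05 and -0.05 were -0.007, 0.02, 0.24 and 0.38 without that library. Lcn2 and Socs3 stayed lower without WT 9 (-1.22 and -1.81).

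Neutrophil markers, another source of leukocyte transcripts in liver, had 6 of 6 tested genes with negative log2 fold changes, against 53% of all genes tested. At an unadjusted p under 0.05, 2 of them were lower, against 14.8% of all genes. The markers summed to between 4.98 and 17.5 FPKM in Prdx1C52S and between 20.1 and 24.8 FPKM in WT. S100a8 and S100a9, the largest parts of this sum, had unadjusted edgeR p-values of 0.267 and 0.484 and were lowest in Prdx1C52S 4. Markers of sinusoidal endothelium had 5 of 7 positive log2 fold changes with all libraries and 2 of 7 without WT 8 (medians 0.23 and -0.16), and summed to between 48.3 and 56.3 FPKM in Prdx1C52S, against 28.4 FPKM in WT 8 and 63.7 and 65.6 FPKM in WT 6 and 9. The 10 hepatocyte markers summed to between 31450 and 33910 FPKM in Prdx1C52S and between 30160 and 31720 FPKM in WT, and most of each sum was Alb. Their log2 fold changes were positive for 8 and negative for 2 (median 0.36, and 0.23 without WT 8), against 47% and 53% of all genes. At an unadjusted p under 0.05, 3 were higher and 0 lower, against 11.5% and 14.8% of all genes.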
